A study of Saccharomyces cerevisiae with 2 samples.

Results

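The genes for peroxisome assembly and peroxisomal beta-oxidation of fatty acids were examined in the budding yeast Saccharomyces cerevisiae. The members were chosen by name. They are the 26 listed open reading frames (ORFs) called PEX with a number, whose products (peroxins) build the organelle, and 11 genes of fatty acid breakdown and its transport steps, POX1, FOX2, POT1, ECI1, DCI1, SPS19, FAA2, PXA1, PXA2, TES1 and CRC1, which makes 37 of 6603 listed ORFs. Messenger RNA of strains CY2706 and CY3003 was sequenced, the first with the wild-type TRA1 gene and the second with tra1-L3733A, an allele for a Tra1 protein with 1 substituted residue. The labels used here name no other allele of these strains. Both cultures grew at 30 °C in YP medium with glucose at 2% and were taken at an A600 of 2.0. There was 1 library per strain, so every difference below compares 2 libraries, not 2 genotypes, and has no replicate check.

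Peroxisomes are single-membrane organelles that, in yeast, house the whole of fatty acid beta-oxidation. Peroxins insert the membrane proteins, carry folded enzymes from the cytosol into the matrix, recycle the receptors that carry them and set the number and size of the organelles. In cells grown on glucose the beta-oxidation genes are kept low. When a fatty acid such as oleate is the carbon source, the transcription factor pair Oaf1 and Pip2 binds the oleate response element upstream of many of these genes, and Adr1 acts beside it. Tra1 belongs to both SAGA and NuA4, histone acetyltransferase complexes that activators recruit to promoters, and the series asks how expression differs between the strain with the substituted and the strain with the wild-type protein.

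The oleate response element was searched for because it is the DNA feature that ties many of these genes together. The motif used was CGG, 15 to 18 bases and CCG, and in a stricter form CGG, 3 bases, T, 1 base, A, 9 to 12 bases and CCG, on either strand of the 500 bases before each start codon of the R64 reference (RefSeq), with genes matched by identifier. The strict form was present for 10 of the 11 beta-oxidation members and for 4 of the 26 PEX members, against 1.88% of 6006 nuclear coding genes. The looser form was present for 15 members, against 8.84% of all genes. The element was originally described in genes of this kind, so its presence there is a description and not independent evidence. The beta-oxidation elements and that of PEX11 are shown 5′ to 3′ on each gene's coding strand, with the end triplets in capitals, to let the shared ends and the variable spacer be compared.
POX1, chrVII:107846-107868 (+): CGGtattagttgattaaactCCG
POX1, chrVII:107883-107905 (+): CGGtcattagcggctaatagCCG
FOX2, chrXI:457337-457358 (-): CGGaagcctagttttaagtCCG
FOX2, chrXI:457305-457325 (-): CGGggaaatttgttaacgCCG
POT1, chrIX:41610-41632 (-): CGGggataatagtattaacaCCG
ECI1, chrXII:707191-707213 (-): CGGgcataagaaatattattCCG
DCI1, chrXV:675286-675309 (-): CGGctgtaagcgcgctaaactCCG
SPS19, chrXIV:259412-259435 (+): CGGcgttaagtatatcaaactCCG
FAA2, chrV:184355-184377 (+): CGGaccgtcagtctttaacgCCG
PXA2, chrXI:89035-89058 (-): CGGcgttaattacaactatcaCCG
TES1, chrX:468389-468411 (-): CGGaagagacggcataaacaCCG
CRC1, chrXV:514584-514606 (-): CGGgttactgctcctaatatCCG
PEX11, chrXV:48756-48778 (-): CGGcatttatctcggagaacCCG

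POX1 and FOX2 each held 2 strict elements, and the 16 strict elements of the 14 genes lay between 108 and 328 bases before the start codon. PXA1 was the beta-oxidation member with no match in this window. Besides PEX11, the PEX genes with a strict match were PEX5, PEX6 and PEX13, and PEX25 held the looser form alone. The FAA2 element overlaps the coding sequence YER014C-A in R64. These are matches of letters, and binding was not measured.

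The libraries held 11564964 reads for TRA1 and 9970836 for tra1-L3733A, summed over both read directions of the 6603 ORFs, with median counts of 481 and 373 reads per ORF. All 37 members had at least 20 reads over both libraries, the minimum for a call, and they ranged from 55 to 1095 reads in the TRA1 library and from 51 to 974 in the tra1-L3733A library. The TRA1 transcript itself was at 0.526 (95% counting interval 0.509 to 0.544) in tra1-L3733A relative to TRA1, which is lower by the rule given below. This does not check the labels, because a point mutation predicts no set change of mRNA abundance, and the cause of the lower value was not tested. Ratios below are tra1-L3733A over TRA1 after scaling of library sizes, each with an exact 95% interval that covers counting error only. Levels are reads per kilobase of ORF per 1e6 reads of the scaled library (RPKM), so that genes can be compared with each other.

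As a group, these genes were present at low levels in both libraries and lay near a ratio of 1. Of the 37 members, 33 were below the median level of tested ORFs in the TRA1 library, 35.2 RPKM, and 31 were below the 35.1 RPKM median of the tra1-L3733A library. The beta-oxidation genes were the lower class, with a median of 10.5 RPKM for TRA1 and 9.28 for tra1-L3733A, against 22.9 and 24.3 for the PEX genes. Together the members held 0.106% of the TRA1 reads and 0.105% of the tra1-L3733A reads.

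**Figure D1:**
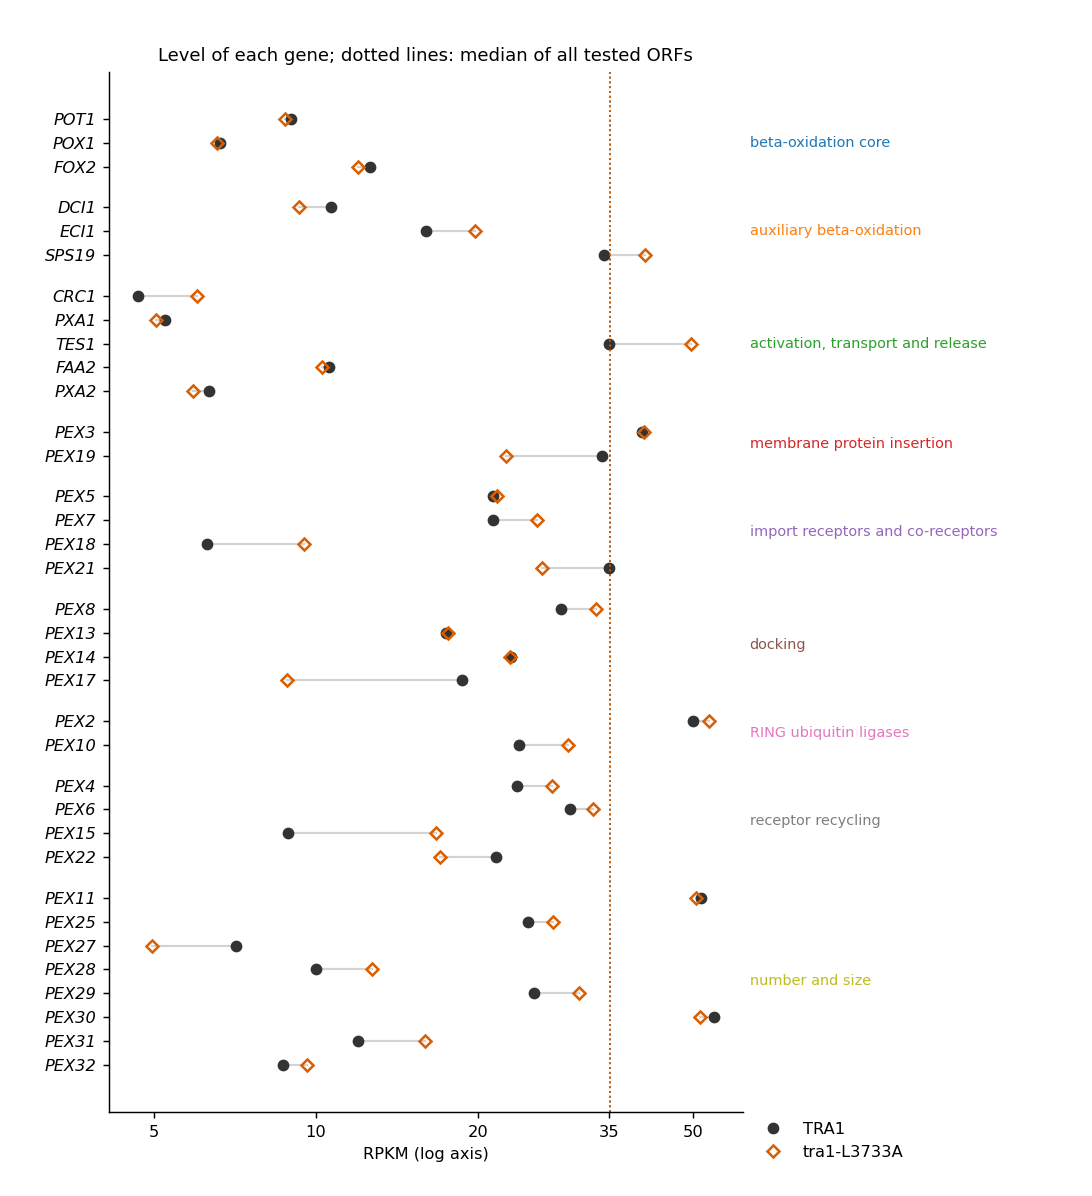
Level of 35 members in RPKM (log axis) in the TRA1 library (filled circles) and the tra1-L3733A library (open diamonds), grouped by role, with 1 library per strain and dotted lines at the medians of all tested ORFs. Most members lie left of the medians of 35.2 and 35.1, and the widest gaps between libraries are those of PEX17 and PEX15.

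An ORF was called higher or lower where its ratio was at least 1.5-fold from 1 and its interval excluded 1. By this rule 4 members differed, all of them PEX genes. PEX15 and PEX18 were higher in tra1-L3733A, and PEX17 and PEX19 were lower. Over all 6248 tested ORFs 8.26% were called, 2.8% as higher and 5.46% as lower, so 2 members higher and 2 lower of 37 is a share near the background. The median log2 ratio was 0.03 over the members and -0.00 over all tested ORFs. The SD of the log2 ratio was 0.36 among members and 0.35 among all tested ORFs. With a threshold of 25% above 1 or its inverse, 10 members were called, 6 higher and 4 lower, against a background of 25.2%, with 10.7% higher and 14.4% lower. At 2-fold PEX17 alone was called, as lower, against a background of 1.23% in either direction, 0.32% higher and 0.912% lower.

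**Figure D2:**
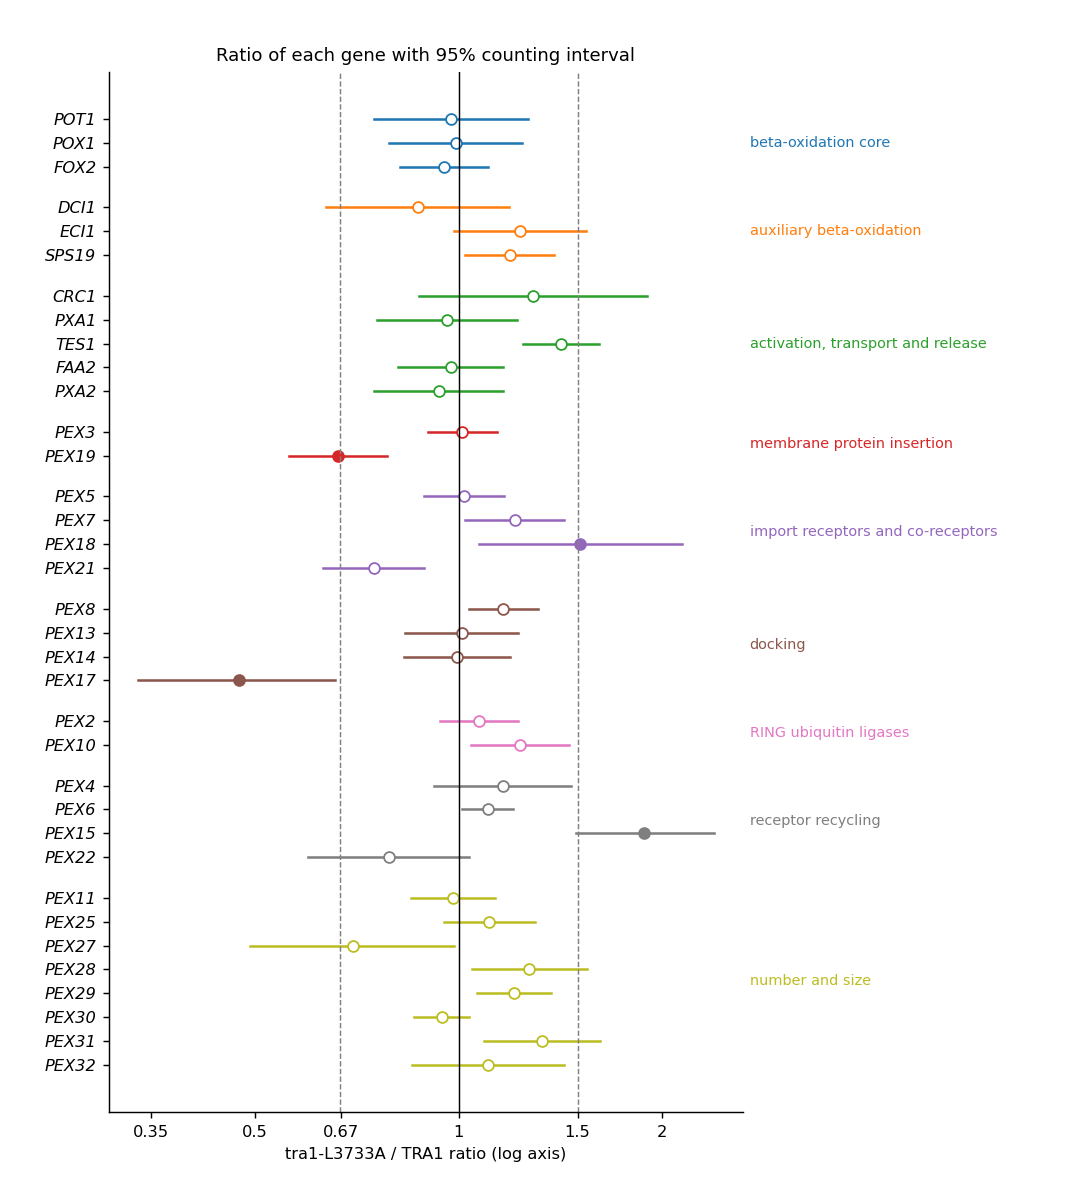
Ratio of tra1-L3733A to TRA1 (log axis) for 35 members, grouped by role, with 95% counting intervals as bars, filled points for called genes and dashed lines at 1.5-fold. PEX15 and PEX18 lie at or beyond the upper line and PEX17 and PEX19 at or beyond the lower one, while the beta-oxidation genes lie between 0.871 and 1.42.

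The core enzymes of beta-oxidation differed little between the libraries. POX1, the acyl-CoA oxidase of the first step, was at 0.990 (0.789 to 1.24) on 178 reads for TRA1 and 142 for tra1-L3733A. FOX2, the bifunctional enzyme that hydrates and then dehydrogenates the product, was at 0.952 (0.818 to 1.11) on 407 and 312 reads. POT1, the ketoacyl-CoA thiolase that releases acetyl-CoA, was at 0.975 (0.749 to 1.27) on 135 and 106 reads. The intervals of these 3 genes all include 1, and their bounds reach no farther than 0.749 and 1.27. In level they ranged from 6.62 to 12.6 RPKM in the TRA1 library and from 6.56 to 11.98 in the tra1-L3733A library, with FOX2 the highest and POX1 the lowest of them in both.

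The auxiliary enzymes, which prepare unsaturated fatty acids for the pathway, were not called either. SPS19, a dienoyl-CoA reductase whose ORF overlaps YNL203C, had 360 and 345 reads, and its ratio of 1.19 (1.02 to 1.38) has an interval above 1. ECI1, an enoyl-CoA isomerase, was at 1.23 (0.985 to 1.55) on 161 and 160 reads. Its read directions were uneven, at 0.961 for forward and 1.53 for reverse reads, and on the reverse reads alone it passed as higher. DCI1, a relative of ECI1 named as a dienoyl-CoA isomerase, was at 0.871 (0.637 to 1.19) on 104 and 73 reads. SPS19 stood at 34.2 and 40.7 RPKM, well above DCI1 at 10.7 and 9.28.

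Among the genes for activation, transport and release, TES1 had the ratio farthest from 1. TES1, a peroxisomal acyl-CoA thioesterase, had 440 reads in TRA1 and 502 in tra1-L3733A, or 35.0 and 49.6 RPKM, and a ratio of 1.42 (1.24 to 1.61), short of the 1.5-fold threshold. Its ORF overlaps YJR020W, so its reads may be shared. FAA2, which activates medium-chain fatty acids inside the peroxisome and whose ORF overlaps BUD25, was at 0.973 (0.812 to 1.16) on 282 and 221 reads. PXA1 and PXA2, the subunits of the transporter that imports long-chain acyl-CoA, were at 0.961 (0.756 to 1.22) and 0.934 (0.748 to 1.16), with levels between 5.04 and 6.33 RPKM. CRC1, the carrier that takes acetylcarnitine into mitochondria, had 55 and 57 reads, which gives a wide interval around its ratio of 1.29 (0.872 to 1.90). Over the 11 beta-oxidation members 0 were called, against 8.26% of all tested ORFs, a share at which few calls would fall among so few genes. Their median log2 ratio was -0.04, and -0.13 with total counts, against medians over all tested ORFs of -0.00 and -0.10. The interval included 1 for 9 of the 11 and for 3141 of the 6248 tested ORFs, and the members' intervals are wider, with bounds at a median of 1.252-fold from the ratio against 1.14-fold.

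Of the peroxins that insert membrane proteins, PEX19 was lower and PEX3 was near 1. PEX19 (YDL065C, chromosome IV, 336249 to 337277 in the files' coordinates), the soluble receptor and chaperone for newly made peroxisomal membrane proteins, had 212 forward and 205 reverse reads for TRA1 and 105 and 118 for tra1-L3733A. That is 33.9 against 22.5 RPKM, a ratio of 0.664 (0.562 to 0.783) and a log2 ratio of -0.59. It lies just past the 1.5-fold threshold, and the call was lost on reverse reads alone (log2 -0.48) and with the trend on ORF length removed (log2 -0.57). PEX3, the membrane protein to which Pex19 docks, was at 1.01 (0.899 to 1.14) on 638 and 520 reads.

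Among the import receptors, PEX18 and PEX21 lay on opposite sides of 1. These related genes encode the co-receptors with which Pex7 imports the thiolase Pot1. PEX18 (YHR160C, chromosome VIII, 419224 to 420075) had 64 reads in TRA1 and 78 in tra1-L3733A, or 6.28 and 9.50 RPKM, with a ratio of 1.51 (1.07 to 2.14). That call was lost with scaling by total counts (log2 0.50) or by lane reads (log2 0.51), and on either read direction alone. PEX21 (YGR239C, chromosome VII, 969192 to 970058) had 363 and 219 reads, or 35.0 and 26.2 RPKM, with a ratio of 0.749 (0.630 to 0.888), and was not called. PEX21 was thus the more abundant co-receptor transcript in both libraries, with PEX18 at 0.179 of its level for TRA1 and 0.362 for tra1-L3733A. The ratio of PEX18 to PEX21 was 2.02 times higher in tra1-L3733A (exact conditional interval 1.37 to 2.98), a value that does not depend on library scaling. It was 1.89 (1.10 to 3.29) on forward and 2.12 (1.202 to 3.77) on reverse reads. The receptors themselves were not called, with PEX5, which recognises the C-terminal targeting signal of most matrix enzymes, at 1.02 (0.888 to 1.17) and PEX7 at 1.21 (1.02 to 1.43).

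In the docking machinery at the membrane, PEX17 was the member farthest from 1. PEX17 (YNL214W, chromosome XIV, 245618 to 246217), a peripheral membrane protein of the docking complex, had 67 forward and 67 reverse reads for TRA1 and 31 and 20 for tra1-L3733A. Its level was 18.7 against 8.82 RPKM, with a ratio of 0.472 (0.335 to 0.657) and a log2 ratio of -1.07. The call was kept under all 9 alternatives of scaling, read filter, read direction, overlap and length, with log2 ratios from -1.41 to -0.79. The read filters and the removal of overlapping ORFs could not alter it, because PEX17 passes the filters and overlaps no listed ORF. Its partners in the same complex lay near 1. PEX13 was at 1.01 (0.833 to 1.22) and PEX14, whose ORF overlaps YGL152C, at 0.995 (0.831 to 1.19). PEX8, which acts from the matrix side and links docking to the ubiquitin ligases, was at 1.17 (1.04 to 1.31) on 602 and 565 reads.

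PEX10 and PEX2, genes of the ubiquitin ligase complex whose RING-domain products modify the receptors for recycling, had ratios above 1 and were not called. PEX10 was at 1.23 (1.04 to 1.46) on 289 and 287 reads. PEX2, whose ORF overlaps YJL211C, was at 1.07 (0.938 to 1.22) on 488 and 421 reads.

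Among the genes for receptor recycling, PEX15 was higher. PEX15 (YOL044W, chromosome XV, 247149 to 248300), the tail-anchored protein that holds the ATPase of receptor export at the membrane, had 59 forward and 63 reverse reads for TRA1 and 82 and 103 for tra1-L3733A. Its level was 8.85 against 16.7 RPKM, with a ratio of 1.88 (1.49 to 2.39) and a log2 ratio of 0.91. The call was kept under the same 9 alternatives, with log2 ratios from 0.78 to 1.02, and not at a 2-fold threshold. Here too the read filters and the removal of overlapping ORFs could not alter it. PEX6, which encodes a subunit of that ATPase, was at 1.10 (1.01 to 1.205) on 1095 and 974 reads. PEX4, the ubiquitin-conjugating enzyme, was at 1.16 (0.921 to 1.47), and PEX22, its membrane anchor, was at 0.789 (0.598 to 1.04) on 140 and 89 reads.

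**Figure D3:**
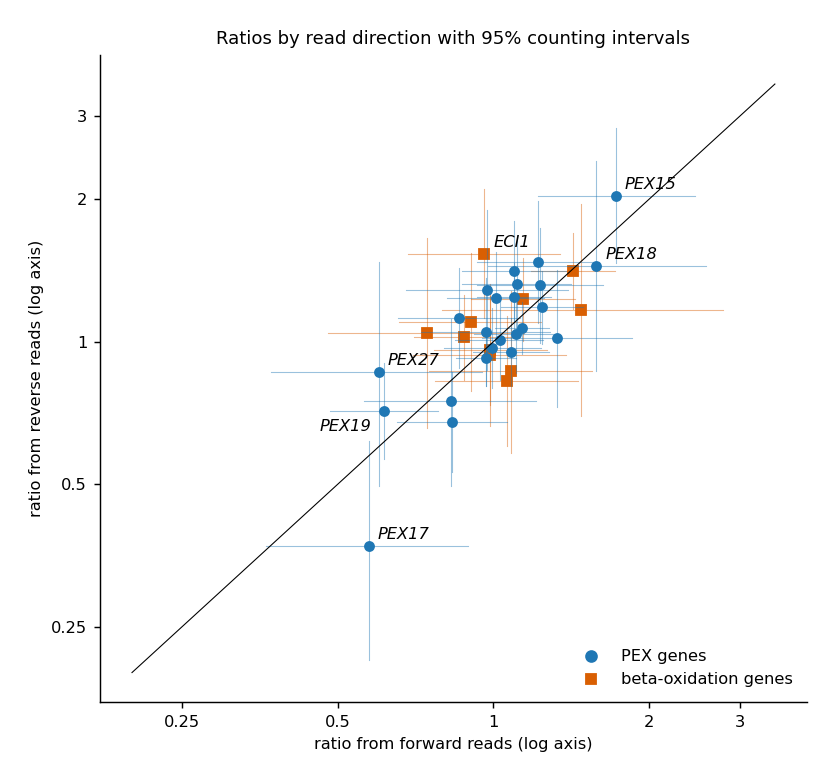
Ratio of tra1-L3733A to TRA1 computed from forward reads (horizontal, log axis) and from reverse reads (vertical, log axis) for 35 members, with 95% counting intervals as thin bars and the line of equality. PEX15 and PEX18 lie above 1 and PEX17 and PEX19 below 1 in both directions, while ECI1 is at 0.961 on forward and 1.53 on reverse reads.

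For 0 of 37 members did the intervals of the forward and the reverse reads lie apart, against 2.497% of all tested ORFs. The plot of ratios by read direction shows the 4 called genes on one side of 1 in each direction. They were called on the sum of both directions, so this is largely set by the rule and is no separate check. For PEX18 both intervals include 1, at 0.978 to 2.57 on forward and 0.867 to 2.41 on reverse reads. The ORFs next to the called genes, described after their values were seen, were not called in any of 8 cases. Over all tested ORFs 8.26% were called, a share at which few calls would fall among 8, so nothing is read from this count. Beside PEX17, IES2 was at 1.02 (0.874 to 1.19) and YNL213C at 0.733 (0.577 to 0.929). Beside PEX15, PSK2 was at 0.770 (0.689 to 0.860) and NTG2, whose ORF lies 90 bases away on the opposite strand, at 1.17 (0.982 to 1.397). Beside PEX19, IDP1 was at 1.005 (0.958 to 1.05) and UBC9 at 1.18 (1.02 to 1.37). Beside PEX18, TDA11 was at 1.05 (0.883 to 1.26) and YAP1801 at 0.801 (0.736 to 0.872).

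The 8 genes that set peroxisome number and size were not called, and their ratios ran from 0.698 to 1.33. At the 8.26% called over all tested ORFs, few calls would fall among 8 genes. PEX11, the membrane-elongating factor, was among the most abundant members at 51.7 and 50.8 RPKM, with a ratio of 0.982 (0.851 to 1.13). Its relatives PEX25 and PEX27 had ratios on opposite sides of 1, with intervals that overlap. PEX25 was at 1.11 (0.951 to 1.30) on 351 and 314 reads, and PEX27 at 0.698 (0.491 to 0.985) on 96 and 54 reads, which was past the threshold when total counts (log2 -0.61) or lane reads (log2 -0.60) set the scaling, and on forward reads alone (log2 -0.72). The ratio of PEX25 to PEX27 was 1.59 times higher in tra1-L3733A (1.09 to 2.34), although on reverse reads alone the interval of 0.793 to 2.61 included 1.

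In the family of membrane proteins that restrict peroxisome size and number, PEX28 was at 1.27 (1.05 to 1.55) and PEX29 at 1.21 (1.07 to 1.37), and the ratio between them differed by 1.05 (0.831 to 1.33). PEX31 was at 1.33 (1.09 to 1.62), PEX32 at 1.11 (0.853 to 1.43) and PEX30, the most abundant member in the TRA1 library at 54.7 RPKM, at 0.945 (0.860 to 1.04). The level of PEX30 was 4.57 times that of PEX31 in the TRA1 library and 3.25 times in the tra1-L3733A library, a ratio of ratios of 0.711 (0.570 to 0.886), with an interval of 0.584 to 1.08 on forward and 0.453 to 0.871 on reverse reads. Of 9 related or partner pairs compared in this way, the interval excluded 1 for 3, namely PEX18 with PEX21, PEX25 with PEX27 and PEX30 with PEX31. No share over other gene pairs was computed, and 49.7% of the intervals of single tested ORFs excluded 1, so nothing is read from 3 of 9. The intervals of the pairs cover counting error only and are not adjusted for the number of pairs. For the other pairs they ran from 0.864 to 1.67 for PEX31 over PEX32, from 0.647 to 1.13 for PEX30 over PEX32, from 0.715 to 1.09 for PEX11 over PEX25, from 0.961 to 2.09 for ECI1 over DCI1, and from 0.741 to 1.43 for PXA1 over PXA2, beside that of PEX28 over PEX29 above.

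**Figure D4:**
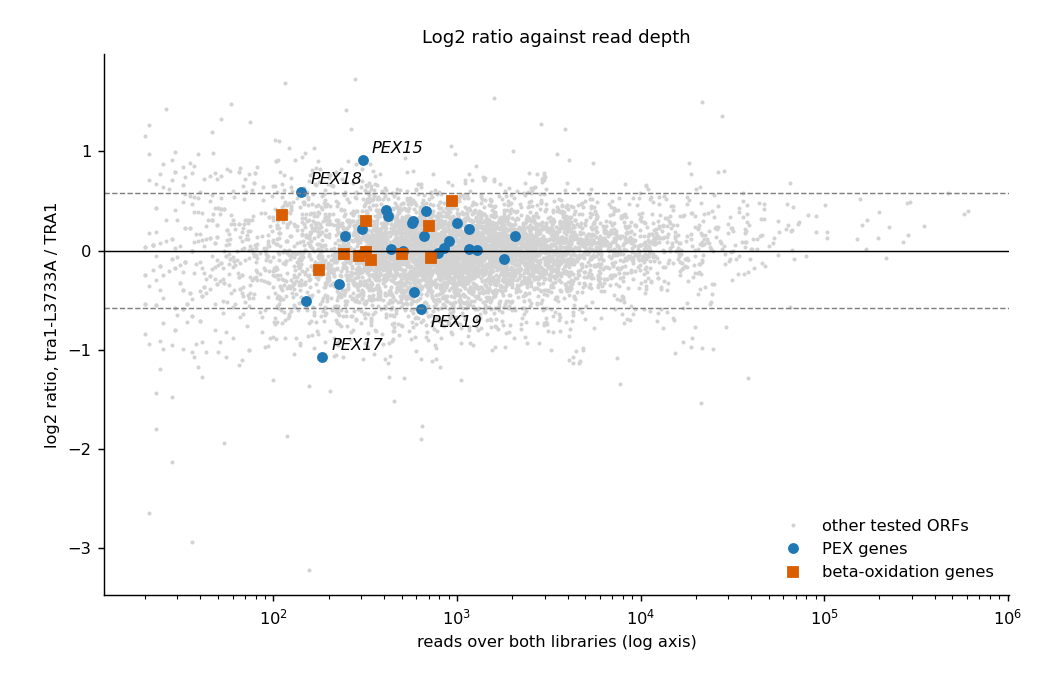
Log2 ratio of tra1-L3733A to TRA1 against the reads summed over both libraries (log axis) for all 6248 tested ORFs (grey), the PEX genes (circles) and the beta-oxidation genes (squares), with dashed lines at 1.5-fold. The members lie within the cloud of other ORFs, and of the called genes PEX17, PEX15 and PEX18 have fewer reads than PEX19.

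By sign, 18 PEX genes lay above 0 on the log2 scale and 8 below, with a median log2 ratio of 0.12, against 14 above, 12 below and a median of 0.02 where total counts set the scaling. Over all tested ORFs 3102 lay above 0 and 3146 below, with a median of -0.00, or 2260 and 3988 with a median of -0.10 with total counts. The scaling moves every ORF alike, so the PEX median lay above that of all tested ORFs in both, a difference that has no test. Of the 26 PEX intervals, 10 lay above 1 and 4 below, and 12 included 1. With total counts 4 lay above and 6 below, and with lane reads 5 above and 6 below, so which side held more of them depends on the scaling. The 53.8% of PEX intervals that excluded 1 is near the 49.7% over all 6248 tested ORFs, of which 1511 lay above 1 and 1596 below, or 905 above and 2236 below with total counts. These shares are not like for like, because the PEX intervals are wider, with bounds at a median of 1.18-fold from the ratio against 1.14-fold. A further 3 ORFs have a PEX symbol in R64 but not in the files, and are not members. These are PEX9 (YMR018W) at 1.13 (0.758 to 1.68), PEX34 (YCL056C) at 0.864 (0.678 to 1.10) and PEX35 (YGR168C) at 0.852 (0.698 to 1.04), and none was called.

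Set beside the DNA element, the 14 members with a strict oleate response element had a median log2 ratio of 0.00 and 0 calls, with ratios from 0.871 to 1.42. The 23 members without it had a median of 0.15 and held all 4 calls. Of the 5682 tested ORFs matched in R64, 141 were called higher and 309 lower, or 7.92%, so few calls would fall among 14 genes at that share, and nothing is read from the split. Median reads were 262 with and 287 without the element in the TRA1 library and 209 and 223 in the tra1-L3733A library, while median levels in the TRA1 library were 14.3 RPKM with and 22.9 without it. Among 93 other tested ORFs with a strict element, the median was -0.03, with 2 called higher and 7 lower, or 9.68%, near the share over all matched ORFs.

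The regulators of these genes were likewise close to 1, with ratios from 0.968 to 1.15. Of 6, 0 were called, against 8.26% of all tested ORFs, a share at which few calls would fall among 6 genes. The same share stands behind the counts of calls in the gene lists below, each of few genes. OAF1 was at 1.08 (0.959 to 1.21), PIP2 at 1.06 (0.931 to 1.196) and ADR1, on 1180 and 1093 reads, at 1.15 (1.06 to 1.2495).

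Of 14 other genes for peroxisomal enzymes, carriers and related steps, the median log2 ratio was 0.10, and 1 gene was called, as higher. The higher gene was CIT2, the peroxisomal citrate synthase of the glyoxylate cycle and a classic target of the retrograde response, with 1280 and 1693 reads and a ratio of 1.64 (1.53 to 1.77). LPX1, a peroxisomal lipase, was at 1.34 (1.19 to 1.51) and NPY1, an NADH pyrophosphatase, at 1.23 (1.08 to 1.41). Of 7 genes for division and inheritance of the organelle, DNM1, a dynamin-related GTPase that also divides mitochondria, was higher at 1.52 (1.396 to 1.66) on 952 and 1167 reads, and was not called where total counts or lane reads set the scaling. VPS1, the other dynamin-related GTPase, was at 1.247 (1.18 to 1.31), FIS1, the membrane anchor of the fission machinery, was at 0.729 (0.636 to 0.834), and 0 genes were lower by the rule.

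Fatty acid activation outside the peroxisome and the carnitine shuttle held no call. Of 4 acyl-CoA synthetase and uptake genes, all 4 log2 ratios lay below 0. FAA4 was at 0.771 (0.738 to 0.806), FAA1 at 0.946 (0.913 to 0.980) and FAA3 at 0.929 (0.832 to 1.04). FAA1 stood at 276.7 RPKM in the TRA1 library, far above the peroxisomal FAA2 at 10.5. Of 4 carnitine shuttle genes, the carnitine acetyltransferases YAT1 and YAT2 were at 1.31 (1.13 to 1.53) and 1.23 (1.08 to 1.399), and AGP2, a plasma membrane regulator of carnitine uptake, was at 0.735 (0.635 to 0.850).

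**Figure D5:**
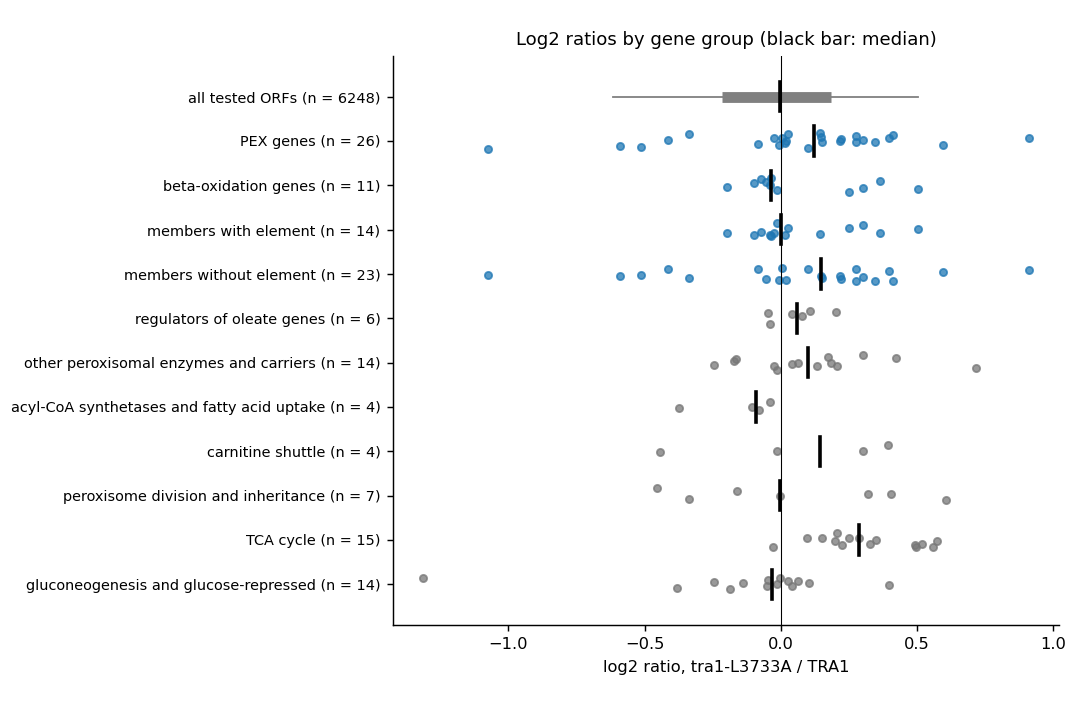
Log2 ratio of tra1-L3733A to TRA1 for the members by class and by presence of a strict oleate response element, and for related gene lists, with each gene as a point and the median as a black bar. For all tested ORFs the thick bar spans the 25th to 75th percentile (-0.22 to 0.19) and the thin line the 5th to 95th (-0.62 to 0.50). The beta-oxidation median of -0.04 and that of the glucose-repressed genes at -0.03 lie near 0, and that of the TCA cycle genes lies at 0.29.

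The gene groups most like these by metabolism are shown for comparison in the plot of log2 ratios by gene group. The 15 TCA cycle genes, which oxidise acetyl-CoA in mitochondria, had a median log2 ratio of 0.29 with 14 of 15 above 0 (13 where total counts set the scaling), and 0 were called. SDH1 was at 1.49 (1.41 to 1.57), ACO1 at 1.47 (1.44 to 1.51) and SDH2 at 1.43 (1.34 to 1.53). The 14 genes of gluconeogenesis and glucose repression had a median of -0.03, with 0 higher and 1 lower. The lower gene was REG2, a regulator of the Glc7 phosphatase whose ORF overlaps YBR051W, at 0.397 (0.240 to 0.636) on 75 and 24 reads. MDH2 was at 1.32 (1.24 to 1.41) and SUC2 at 0.767 (0.690 to 0.852). The difference of these medians from the -0.04 of the beta-oxidation genes has no test, because there is 1 library per strain.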

How the data were processed

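The authors deposited raw read counts per ORF in columns named fr and rr. The labels do not define these columns, which were taken as read directions and summed. A coverage column, a signal the authors made by dividing that sum by the ORF's span (per the file headers and true of all 13206 entries to a tolerance of 1e-06), served as a check alone. Novoalign is the aligner, per the submitters' processing notes, and the version, build and annotation are not given in the sources used. The labels' protocols give lanes of 13014880 and 11156078 reads of 35 nucleotides. All 37 members matched R64 by identifier and had the same length there, and 5 had the same start and end. R64 was used for upstream sequence alone, and other coordinates are the files' own. Whether strand was kept is not given, so reads of overlapping ORFs are not separated.

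Scaling used the TMM factors (trimmed mean of M-values) of edgeR 4.0.16 under R 4.3.3, which were 1.035 for TRA1 and 0.967 for tra1-L3733A. Intervals were computed in scipy 1.17.1. RPKM was computed here from the scaled counts. Ratios have exact (Clopper-Pearson) 95% intervals, and log2 ratios used 0.5 added reads. A call needed 20 reads over both libraries, 1.5-fold and an interval that excludes 1. With 1 library per strain edgeR's test could not be run, and no p-value is given. No molecular identifiers are named, so reads are not taken as independent molecules, and the intervals cover neither this nor the spread between cultures. Pairs were compared by conditional odds ratios. Alternatives were scaling by total counts, lane reads or DESeq2 1.42.0 size factors, other read filters and thresholds, single read directions, no overlapping ORFs and a removed length trend. A further 2 members are not reported here by themselves and are left out of the plots of single members, but stand in the counts over members. The other members were to be named, and of each related list the 3 genes whose interval bound lies farthest from 1 and any called gene. Genes whose interval included 1 tied in this order and were taken in list order, as were OAF1, PIP2 and FAA3. Members and lists were chosen with earlier results of these data known. Protein targeting signals, planned as a feature, were not analysed here, and the 500-base window was chosen with the files in hand.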

Additional observations from a re-analysis of the deposited data

How the results depend on the processing

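Of 328 values of single members under alternatives of scaling, filter, read direction, overlap and length, 317 kept their call and stayed within the counting interval. The share is not a measure of stability, because many of these values could not differ. Every member passes both read filters, and the overlap setting leaves each member without an overlap as it was. Of the rest, 6 lost a call (PEX18 4 times, PEX19 2 times), 4 gained one (PEX27 3 times, ECI1 once) and 1 moved beyond its interval (ECI1). In all, 0 called genes changed direction. The 2 higher members became 1 when total counts or lane reads set the scaling, 1 on forward reads, 6 with a threshold of 25% above 1 or its inverse and 0 at 2-fold. The 2 lower members became 1 on reverse reads, 1 with the length trend removed, 4 at the 25% threshold and 1 at 2-fold. In all, 4 calls became 10 at the 25% threshold and 1 at 2-fold.

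Over all ORFs the 516 calls (175 higher, 341 lower) became 91 higher and 515 lower with total counts and 98 higher with lane reads, a shift of about 0.10 on the log2 scale for every ORF. They became 1572 (670 and 902) at the 25% threshold and 77 (20 and 57) at 2-fold. The median log2 ratio of all members was 0.03, and -0.07 with total counts. The cause of changes other than by scaling or threshold was not tested. No paired analysis was possible because each strain has 1 library. Depth limits these genes: the interval bounds of a member lay at a median of 1.196-fold from its ratio, against 1.14-fold over all tested ORFs.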
